A study of Mus musculus with 16 samples.

Results

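Inguinal white adipose tissue from mice on a high-fat diet that also received an antibody against platelet-derived growth factor CC (PDGF-CC) was compared with the same tissue from untreated mice on a control diet. All genes of the deposited table of normalized counts entered the comparison, on the log2(value + 1) scale, with skeletal muscle genes kept apart. The question was which diet differences remained, and which were absent, when high-fat animals also got the antibody. The 2 groups hold 4 libraries each, 8 of the 16 in the series; the other 8 come from high-fat mice without antibody and from control-diet mice with antibody. All mice were of strain C57BL6/J. The treatment protocol, which the labels repeat for all 16 libraries, gives an age of 6 weeks for the mice that received antibody, and no separate age stands there for the untreated mice. The antibody, AF1447, was given intraperitoneally in a PBS volume of 100 µl, at a dose of 50 mg/kg every 2 days over 2 weeks. How long the diets lasted, whether untreated mice received an injection, the sex of the animals and the hour of collection have no entry in the labels and were not used here. Because diet and antibody both differ between the 2 groups, the effects of each cannot be told apart within this comparison. The 2 contrasts used most beside it are high-fat without antibody against untreated control diet, and high-fat with antibody against high-fat without it. Control diet with antibody was also set against untreated control diet, and high-fat with antibody against control diet with antibody. No label ties the 4 libraries of a group to 4 different mice, so the p-values reflect only how much these libraries vary, and that variation may be technical.

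PDGF-CC is secreted as a latent dimer that proteases such as tissue plasminogen activator cleave into an active form, and it acts mainly through the receptor PDGFRA, which in adipose tissue marks stromal cells and adipocyte progenitors. Inguinal fat is a subcutaneous depot whose adipocytes take up fatty acids and also make them from glucose. That second route, de novo lipogenesis, runs from citrate through acetyl-CoA and malonyl-CoA to palmitate, and its enzymes are known to be transcribed less when dietary fat is abundant and carbohydrate scarce.

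Column totals of the 16 libraries ran from 24.02 to 28.15 (in units of 1e6 normalized counts), and 14189 genes were tested after 1902 low ones were left out. Adiponectin (Adipoq), the secreted protein that defines adipocytes, was at 89072, 95803, 87491 and 80260 normalized counts in control libraries 1 to 4 and 93980, 97146, 88552 and 90748 in the antibody libraries, so this adipocyte gene was high in all 8. Control libraries 1 and 3 stood apart from each other: on the mean log2 level of 29 lipogenic genes control library 1 was at 12.544, beside 13.278, 14.039 and 13.974 in the other 3 and 12.157 to 12.631 in the antibody libraries. Markers of skeletal muscle were uneven too, with summed normalized counts over 86 genes of 6345 to 67068 in the control libraries and 5837 to 21019 in the antibody libraries. In bulk tissue, fewer cells of a type and less RNA per cell cannot be told apart. Exons of 20 of the 141 genes named in the text overlap a gene on the opposite strand, and whether the authors counted by strand is unstated in the labels; the values of Acss2, Agpat2, BC037039, Cebpa, Egfl7, Elovl6, Fdft1, Gli1, Mdh1, Mest, Mpc1, Nnat, Npr3, Pfkp, Plin4, Srebf1, Tk1, Tmem79, Wdr6 and Zfp36 are uncertain to that extent.

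Outside the muscle list, 1404 of 14103 genes passed the threshold (limma, adjusted p under 0.05), which is 9.96% of those tested: 711 were higher (5.04%) and 693 lower (4.91%) in the antibody libraries, 174 of them by at least 2-fold. For 934 genes (6.62%) every antibody library lay above every control library, and for 886 (6.28%) every one lay below. Set against the same 4 control libraries, the high-fat libraries without antibody gave 1156 genes past the threshold (8.2%), 423 higher (3%) and 733 lower (5.2%). These 2 comparisons share their control libraries, so their values are given side by side and likeness between them is not a result. When columns were rescaled to equal totals, 1374 genes were higher and 371 lower, 78.7% higher against 50.6% as deposited, and the median of all genes moved from 0.007 to 0.111 on the log2 scale. The number of calls depends on single libraries of both groups and on the spread pooled over all 4 groups: it was 648, 556 and 358 without control library 2, 3 or 4, 471, 415 and 453 without antibody library 2, 3 or 4, 3717 without control library 1, and 11 when only the 8 libraries were fitted. The calls for high-fat without antibody also depended on single libraries, with 0 left without control library 4, without high-fat library 4 (no antibody) or with only its 8 libraries fitted, 95 with the muscle score as a covariate and 4118 without control library 1. Each of the 66 genes named in the text that passed for high-fat without antibody missed the threshold with at least 1 library left out. With only the 8 libraries of high-fat with antibody and untreated control diet fitted, Per3 was the 1 member of the 37 gene lists that passed between them. Of the 105 genes named in the text as past the threshold, 31 stayed past it whichever of the 16 libraries was dropped, and Orm3, Per3, Rgs2 and Synpo2 passed in each of the 28 alternative settings tried.

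**Figure D1:**
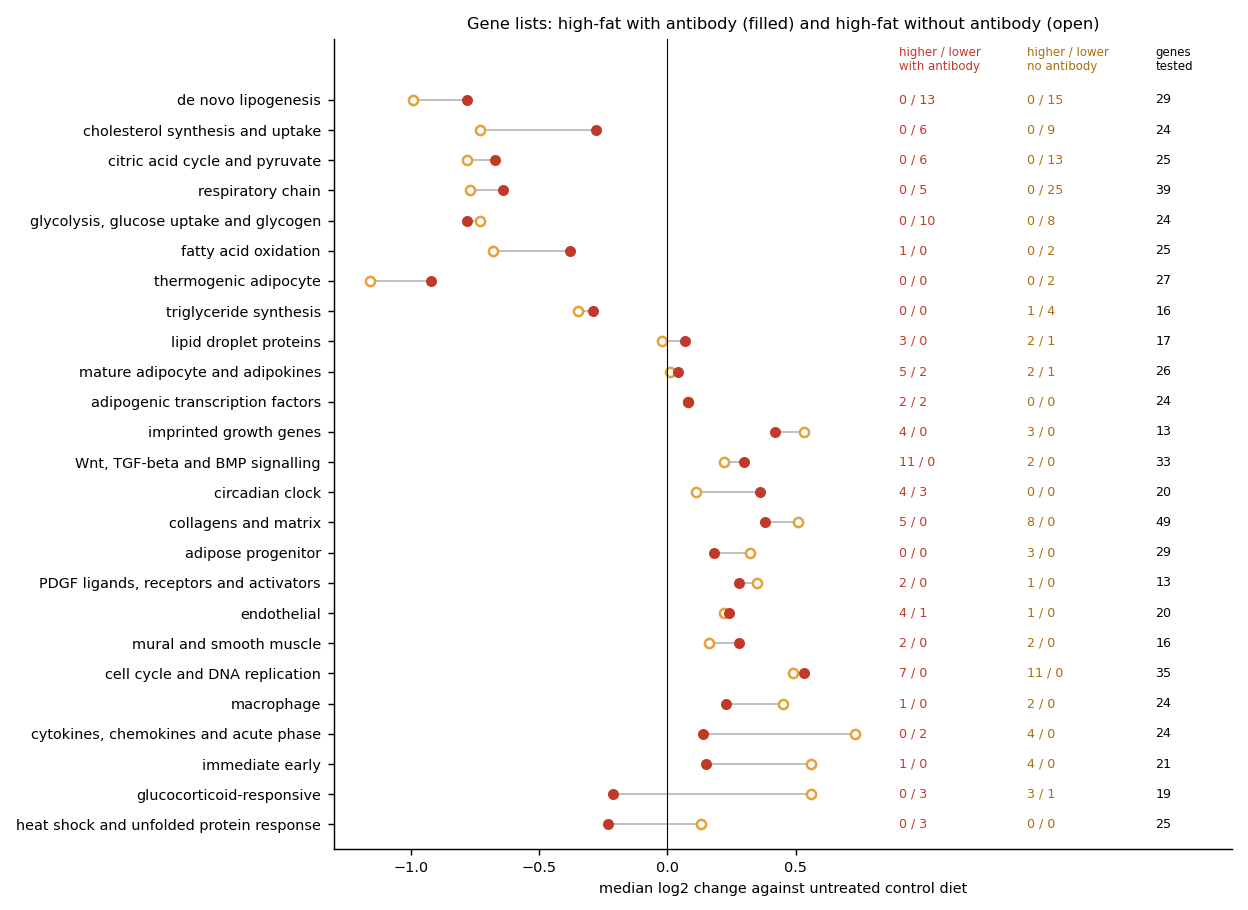
Median log2 change of 25 gene lists against untreated control diet on the horizontal axis, for high-fat with antibody (filled circles) and high-fat without antibody (open circles), with the number of members past the threshold, higher and lower, and the number tested at the right. Both medians lie below 0 for the lipogenic, cholesterol, citric acid cycle, respiratory and glycolytic lists, while the medians of the cytokine, immediate early and glucocorticoid-responsive lists are 0.14, 0.15 and -0.21 with antibody and 0.73, 0.56 and 0.56 without.

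Lipogenic genes were lower in high-fat libraries with antibody than in untreated control libraries. Of 29 genes of de novo lipogenesis tested, 13 fell and none rose, where 4.91% of all genes fell. The list median was -0.78 on the log2 scale beside 0.007 for all genes. Against control diet with antibody, where both groups got the antibody, 27 of the 29 were lower (median -0.70). None of them passed the threshold there (limma, smallest adjusted p = 0.0859), where 0.00709% of all genes did. Gene positions are given on GRCm38 as GENCODE vM21 annotates them. The promoters of the fallen genes are shown first because these genes moved together. RefSeq promoter windows on build GRCm38.p6, from 250 bases before to 50 after the start site, were matched for 16 of the 19 genes that fell in the lipogenic and cholesterol lists. Fatty acid synthase (Fasn; chr11:120824498-120824797, minus strand), acetyl-CoA synthetase (Acss2; chr2:155517793-155518092, plus strand) and Spot 14 (Thrsp; chr7:97417501-97417800, minus strand) are printed 5′ to 3′, with CCAAT, or ATTGG where it lies on the other strand, in capitals:
Fasn: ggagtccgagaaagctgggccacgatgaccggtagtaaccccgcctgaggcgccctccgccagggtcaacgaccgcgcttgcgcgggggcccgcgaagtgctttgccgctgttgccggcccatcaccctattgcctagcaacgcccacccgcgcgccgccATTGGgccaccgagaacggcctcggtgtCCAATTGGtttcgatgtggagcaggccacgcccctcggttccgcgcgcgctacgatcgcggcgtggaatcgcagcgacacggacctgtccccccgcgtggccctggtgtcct
Acss2: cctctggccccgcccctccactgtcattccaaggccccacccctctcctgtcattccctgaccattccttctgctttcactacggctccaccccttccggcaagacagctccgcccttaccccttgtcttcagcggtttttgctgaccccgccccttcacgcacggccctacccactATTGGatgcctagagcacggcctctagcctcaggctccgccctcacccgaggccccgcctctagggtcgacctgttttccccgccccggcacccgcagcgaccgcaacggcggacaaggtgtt
Thrsp: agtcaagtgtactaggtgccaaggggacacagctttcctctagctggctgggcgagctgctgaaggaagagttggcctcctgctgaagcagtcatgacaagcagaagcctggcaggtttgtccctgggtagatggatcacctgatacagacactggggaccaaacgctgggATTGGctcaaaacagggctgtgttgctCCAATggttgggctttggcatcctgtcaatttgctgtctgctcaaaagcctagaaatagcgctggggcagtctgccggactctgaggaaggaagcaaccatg

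The Fasn window holds 3 matches, 2 of which overlap as CCAATTGG, the Thrsp window holds 2 and the Acss2 window 1. On either strand, CCAAT was in 12 of the 19 windows of the fallen genes (63.2%) and in 37.4% of all 32851 promoter windows. The E-box CACGTG was in 1 of the 19 (5.26%) against 7.15% of all, and TCACNCCAC, the letters of a sterol regulatory element, in 0 of the 19 against 1.24% of all. These counts describe letters in the windows only.

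Fasn (ENSMUSG00000025153, chr11:120805846-120824547), which makes palmitate, was at 278930, 470473, 837167 and 752942 normalized counts in control libraries 1 to 4 and at 142912, 133980, 121739 and 229268 in antibody libraries 1 to 4. Every antibody library lay below every control library, a ratio of means of 3.73, and the log2 change was -1.82 ± 0.40 (SE; adjusted p = 0.0173). Acly (ENSMUSG00000020917, chr11:100476353-100528000), which splits citrate into acetyl-CoA, stood at 25480, 60662, 117384 and 125829 against 11192, 12562, 11647 and 16343. The groups did not overlap, the means differed 6.37-fold and the log2 change was -2.43 ± 0.44 (SE; adjusted p = 0.00992). For Acss2 (ENSMUSG00000027605, chr2:155517948-155585724), which makes acetyl-CoA from acetate, the values were 10098, 15678, 22405 and 26678 against 3308, 4371, 5417 and 5566, again without overlap, with a log2 change of -1.94 ± 0.32 (SE; adjusted p = 0.00768). Malic enzyme (Me1), a source of NADPH, was at 18849, 31718, 55465 and 56004 against 10720, 11175, 11509 and 15249 and fell by 1.62 on the log2 scale (SE 0.33; adjusted p = 0.0146). The desaturase Fads2 was at 552.1, 453.1, 404.7 and 495.7 against 251.2, 259.4, 265.9 and 332.4, a log2 change of -0.78 ± 0.14 (SE; adjusted p = 0.00987). In all 5 genes the 4 antibody libraries lay close together below the control libraries, whose spread was wider for Fasn, Acly and Me1, with control library 1 the lowest. The elongase Elovl6 was at 4814, 14123, 40888 and 31645 against 2829, 2808, 1354 and 5409; antibody library 4 lay above control library 1, and the log2 change was -2.64 ± 0.64 (SE; adjusted p = 0.0253). Leaving out 1 library took the call from Fasn and Elovl6, with a highest adjusted p of 0.0792 for Elovl6 without control library 4. The number of lipogenic genes that fell was 6 without control library 4 and 19 without control library 1.

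**Figure D2:**
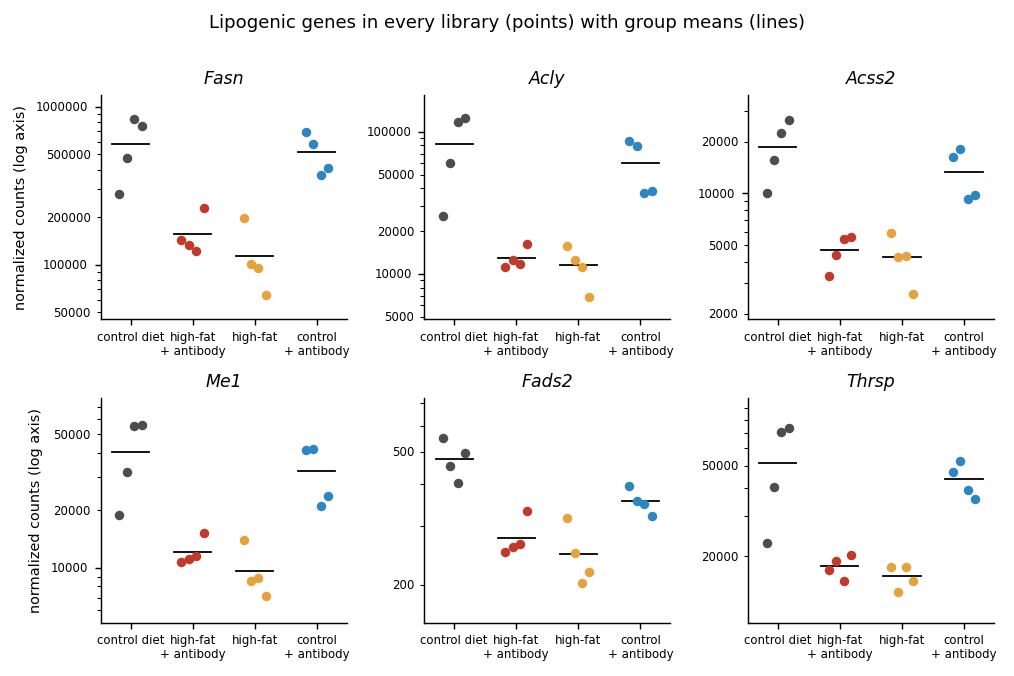
Normalized counts (log axis) of Fasn, Acly, Acss2, Me1, Fads2 and Thrsp in each of the 16 libraries (points), with the mean of each group as a line. For each of these 6 genes the 4 high-fat libraries with antibody lie below all 4 untreated control-diet libraries.

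In high-fat without antibody against control, which shares the control libraries, the log2 change was -2.35 for Fasn, -2.64 for Acly, -2.10 for Acss2 and -3.54 for Elovl6. Tested directly, high-fat with antibody minus high-fat without it was 0.53 ± 0.40 (SE; adjusted p = 0.607) for Fasn and 0.21 ± 0.44 (SE; adjusted p = 0.892) for Acly. Of the 29 lipogenic genes, 27 were higher with antibody than without among high-fat libraries, with a median of 0.29, and none passed the threshold, where 0.078% of all genes did. The fructose transporter Slc2a5, chosen after its values were seen, passed against control only without antibody, at -4.76 (adjusted p = 0.0149) beside -2.60 (adjusted p = 0.0694) with it. Srebf1, the transcription factor SREBP-1 that drives lipogenic genes, did not pass the threshold in either comparison: it was at 10103, 15800, 22304 and 27206 in the control libraries and 21524, 27080, 17634 and 16686 in the antibody libraries. These ranges overlap, and the log2 change was 0.21 ± 0.26 (SE; adjusted p = 0.615), beside -0.71 (adjusted p = 0.0865) without antibody and 0.91 ± 0.26 (SE; adjusted p = 0.149) between the high-fat groups. The desaturase Scd1 missed the threshold at -0.97 ± 0.39 (SE; adjusted p = 0.112), although its groups did not overlap.

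Cholesterol genes fell in part. Of 24 tested genes of cholesterol synthesis and uptake, 6 fell and none rose with antibody (median -0.28), and 9 fell without antibody (median -0.73). Of all genes, 4.91% fell with antibody and 5.2% without. Farnesyl diphosphate synthase (Fdps) was at 200.3, 285.2, 323.8 and 410.6 in the control and 116.5, 142, 162.9 and 121.3 in the antibody libraries, with no overlap and a log2 change of -1.13 ± 0.20 (SE; adjusted p = 0.00987). Squalene epoxidase (Sqle), the sterol dehydrogenase Nsdhl and phosphomevalonate kinase (Pmvk) changed by -1.05, -0.87 and -1.06, with adjusted p of 0.023, 0.0191 and 0.0133. Squalene synthase (Fdft1) did not pass the threshold with antibody: its values were 871, 1107, 1410 and 1680 in the control libraries, 1224, 1470, 1054 and 1324 in the antibody libraries and 797.5, 745.4, 620 and 721.6 in the high-fat libraries without antibody. Its log2 change was 0.03 ± 0.17 (SE; adjusted p = 0.918) with antibody and -0.77 (adjusted p = 0.0266) without, and the difference between the high-fat groups, 0.81 ± 0.17 (SE; adjusted p = 0.0661), missed the threshold with no overlap of libraries. With 1 library left out the threshold was missed by Sqle and Nsdhl, with a highest adjusted p of 0.0729 for Sqle without control library 4. The 6 falls in the list became 2 without control library 3 or 4 and 10 without control library 1.

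Some genes of mitochondrial metabolism and glucose use fell. All 39 tested subunits of the respiratory chain had a negative log2 change, with a median of -0.64, and 5 fell with antibody, against 25 without antibody, where the median was -0.77. In the citric acid cycle and pyruvate list 6 of 25 fell with antibody (median -0.67) and 13 without (median -0.78). The shares of all genes that fell were 4.91% with antibody and 5.2% without. The pyruvate dehydrogenase subunit Pdhb was at 6773, 11143, 21723 and 19446 in the control and 6103, 5539, 4056 and 6811 in the antibody libraries; control library 1 lay inside the antibody range, and the log2 change was -1.27 ± 0.31 (SE; adjusted p = 0.0263). The mitochondrial pyruvate carrier Mpc1 and pyruvate carboxylase (Pcx) changed by -1.07 and -0.76 (adjusted p = 0.0409 and 0.0174), malate dehydrogenase (Mdh1) by -0.60 (adjusted p = 0.0226). Among respiratory subunits, Ndufa5 and Ndufv2 of complex I changed by -0.73 and -0.68, and Sdhc of complex II by -0.54 (adjusted p = 0.04, 0.0427 and 0.0394). Cox5a of complex IV, chosen after its values were seen, was at -0.82 (adjusted p = 0.0609) with antibody and -1.03 (adjusted p = 0.0382) without. No gene of either list passed between the high-fat groups, where their medians were 0.12 and 0.15. Calls were lost with 1 library left out for Pdhb, Mpc1, Pcx, Mdh1, Ndufa5, Ndufv2 and Sdhc, with a highest adjusted p of 0.126 for Ndufv2 without control library 4. Without control library 1 the respiratory count was 38 and the citric acid cycle count 23; without control library 4 both were 0, and the respiratory count was also 0 without any 1 of 6 other libraries. With the muscle score as a covariate, 33 respiratory subunits fell; the part of muscle RNA in these genes was not otherwise tested.

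Of 24 genes of glycolysis, glucose uptake and glycogen, 10 fell and none rose with antibody (median -0.78), and 8 fell without it (median -0.73). Among all genes 4.91% fell with antibody and 5.2% without. Glycogen phosphorylase (Pygl), which releases glucose units from glycogen, was at 9905, 14599, 22935 and 23010 in the control and 7063, 6875, 5984 and 8302 in the antibody libraries. There was no overlap, and the log2 change was -1.25 ± 0.25 (SE; adjusted p = 0.0136). The branching enzyme Gbe1 was at 2950, 4185, 7126 and 5867 against 2038, 2298, 2135 and 2581, also separate, with -1.08 ± 0.23 (SE; adjusted p = 0.0159). Lactate dehydrogenase (Ldha) and phosphofructokinase (Pfkp) changed by -0.50 and -0.48 (adjusted p = 0.0243 and 0.023), beside -0.38 for Ldha without antibody (adjusted p = 0.0593). The glycogen-targeting subunit Ppp1r3b passed without antibody, at -2.70 (adjusted p = 0.0408), and was at -1.01 (adjusted p = 0.362) with it. Leaving out a single library ended the call for Gbe1, Ldha and Pfkp, with a highest adjusted p of 0.0743 for Ldha without control library 4. The count of 10 ran from 1 without control library 4 to 19 without control library 1.

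Among genes of fat storage a few rose. No gene of the 16 in triglyceride synthesis passed with antibody (median -0.29), while 4 fell and 1 rose without it, where 5.2% of all genes fell and 3% rose. The final enzyme of the route, Dgat2, was at 41909, 38003, 47116 and 46516 in the control, 35445, 41972, 58288 and 41682 in the antibody and 37291, 30394, 20307 and 22988 in the high-fat libraries without antibody. The first 2 ranges overlap, with a log2 change of 0.01 ± 0.18 (SE; adjusted p = 0.973), beside -0.68 (adjusted p = 0.0413) without antibody and 0.69 ± 0.18 (SE; adjusted p = 0.142) between the high-fat groups. The acyltransferases Agpat2 and Gpam were at -0.34 (adjusted p = 0.495) and -0.60 (adjusted p = 0.105) with antibody, and at -1.25 and -0.88 without (adjusted p = 0.0362 and 0.0393). Of 17 lipid droplet genes 3 rose with antibody, where 5.04% of all genes rose. Perilipin 4 (Plin4), a coat protein of the droplet, was at 68341, 67977, 73727 and 51886 against 97264, 130362, 144566 and 116706: every antibody library was higher, with a log2 change of 0.90 ± 0.17 (SE; adjusted p = 0.0135). Sncg, a lipid-binding synuclein of adipocytes, and Cavin1, a coat protein of caveolae, changed by 1.06 and 0.41 (adjusted p = 0.0307 and 0.0392). Among 19 lipolysis genes the natriuretic peptide clearance receptor Npr3 rose and the protein kinase A subunit Prkaca fell (log2 change 1.15 and -0.38, limma, adjusted p = 0.0398 and 0.0489). Prkaca was also the 1 gene of the 19 that passed without antibody, where it fell. With antibody, the 1 rise and 1 fall are near the shares of all genes, 5.04% and 4.91%. Of 25 genes of fatty acid oxidation 1 rose, the carnitine palmitoyltransferase Cpt1a (log2 change 0.58; limma, adjusted p = 0.0493), near the 5.04% of all genes. The list median was -0.38, and all 25 were higher with antibody than without among high-fat libraries (median 0.27, none past the threshold). Without control library 1, however, 12 of the 25 fell, and the median ranged from -0.66 to -0.15 over the single libraries left out. None of 27 thermogenic genes passed (median -0.92), and Ucp1, which uncouples respiration in beige and brown fat, was at -2.26 ± 1.96 (SE; adjusted p = 0.458); without control library 1, 4 thermogenic, 4 triglyceride synthesis and 5 lipid droplet genes fell. With single libraries left out, calls ended for Sncg, Cavin1, Npr3, Prkaca and Cpt1a, with a highest adjusted p of 0.147 for Cpt1a without control library 4. In high-fat without antibody against control, 2 of the 25 oxidation genes fell (median -0.68). There 2 of the 27 thermogenic genes fell as well (median -1.16), where 5.2% of all genes fell.

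Some imprinted genes linked to growth and adipocyte expansion rose. Of 13 tested, 4 rose and none fell with antibody (median 0.42), and 3 rose without it (median 0.53). Of all genes, 5.04% rose with antibody and 3% without. Mest (ENSMUSG00000051855, chr6:30723547-30748465), an adipocyte gene known to track fat mass expansion, was at 3581, 1419, 847.2 and 1264 in the control and 4967, 12836, 26171 and 7330 in the antibody libraries. Every antibody library was higher, the means differed 7.21-fold and the log2 change was 2.78 ± 0.56 (SE; adjusted p = 0.0143), beside 1.97 (adjusted p = 0.0455) without antibody. The zinc-finger gene Peg3 was at 2857, 3648, 2139 and 1753 against 5224, 5397, 6393 and 4884, without overlap, with 1.12 ± 0.20 (SE; adjusted p = 0.00987). Neuronatin (Nnat) and Zim1 rose by 1.31 and 0.87 on the log2 scale (adjusted p = 0.0191 and 0.0396). Sfrp5, an adipocyte inhibitor of Wnt signalling, was at 925.9, 439.5, 159.5 and 405.6 against 1239, 2007, 2910 and 1856, separate in all libraries, with 2.24 ± 0.51 (SE; adjusted p = 0.0196), beside 1.63 (adjusted p = 0.0578) without antibody. Leptin (Lep), the satiety hormone made in proportion to fat mass, was at 16270, 7059, 14863 and 15580 against 23019, 32468, 61892 and 20422; its lowest value was control library 2, the groups did not overlap and the log2 change was 1.29 ± 0.37 (SE; adjusted p = 0.0422), beside 0.82 (adjusted p = 0.15) without antibody. Of 26 adipocyte and adipokine genes, 2 rose and 1 fell without antibody, and 5 rose and 2 fell with it. Of all genes, 5.2% fell without antibody and 4.91% with it. Those that passed with antibody included the glucose-transporter regulator Trarg1 at 0.81 and the retinol-binding protein Rbp7 at -0.60 (limma, adjusted p = 0.0267 and 0.0457). Adipoq was at 0.07 ± 0.11 (SE; adjusted p = 0.698). The threshold was missed, with 1 library left out, by Nnat, Sfrp5, Zim1, Lep, Trarg1 and Rbp7, with a highest adjusted p of 0.121 for Lep without antibody library 3. Rbp7 did not pass for high-fat without antibody. It was at -0.87 between the high-fat groups, where no gene of the list passed. In control diet with antibody against control, Rbp7 was at -1.02 (limma, adjusted p = 0.0454).

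Among 24 adipogenic transcription factors and regulators 2 rose and 2 fell with antibody, where 5.04% of all genes rose and 4.91% fell. None of the 24 passed without antibody. The core factors Pparg and Cebpa were at -0.07 ± 0.25 (SE; adjusted p = 0.884) and 0.16 ± 0.13 (SE; adjusted p = 0.397). Klf15, a Krüppel-like factor of adipocyte differentiation and fasting metabolism, was at 2851, 3151, 3058 and 3336 in the control and 2313, 1477, 1722 and 1823 in the antibody libraries. All antibody libraries were lower, with -0.77 ± 0.14 (SE; adjusted p = 0.00987), beside -0.19 (adjusted p = 0.352) without antibody and -0.58 ± 0.14 (SE; adjusted p = 0.0905) between the high-fat groups; control-diet libraries with antibody were at 1799, 2136, 2685 and 2067, -0.53 ± 0.14 (SE; adjusted p = 0.139) against control. The zinc-finger gene Zfp467 rose (log2 change 0.79, adjusted p = 0.0263), as did the adipogenic ligand Bmp4 (log2 change 0.52, adjusted p = 0.0459), and Zbtb16 fell as described with the antibody contrast. Single libraries decided the calls of Zfp467 and Bmp4, with a highest adjusted p of 0.125 for Bmp4 without control library 3.

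The transcript of the targeted ligand was not past the threshold. Pdgfc was at 909.5, 567.8, 426.3 and 504.5 normalized counts in the control and 701.6, 614.8, 729.3 and 546.5 in the antibody libraries, ranges that overlap, with a log2 change of 0.16 ± 0.18 (SE; adjusted p = 0.583). An antibody binds protein, so transcript levels are no check of the treatment. The receptors Pdgfra and Pdgfrb were at 0.17 ± 0.16 (SE; adjusted p = 0.49) and 0.40 ± 0.14 (SE; adjusted p = 0.0793), and tissue plasminogen activator (Plat), which activates PDGF-CC, at 0.22 ± 0.24 (SE; adjusted p = 0.559). All 13 tested genes of the list, which holds ligands, receptors and their proteases, had a positive log2 change (median 0.28). Past the threshold 2 rose, where 5.04% of all genes did. The urokinase receptor Plaur, which was among them, was at 101.9, 70.4, 44.7 and 63.31 in the control and 142.7, 98.84, 131 and 117.3 in the antibody libraries. It rose by 0.84 with antibody (adjusted p = 0.0425) and 1.26 without (adjusted p = 0.0178). With 1 library left out the threshold was missed by Plaur, with an adjusted p of 0.119 without control library 3.

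Signalling, matrix and vascular genes rose in part. For all genes, the shares that rose were 5.04% with antibody and 3% without. In the list of Wnt, TGF-beta and BMP signalling 11 of 33 rose and none fell with antibody (median 0.30), and 2 rose without it (median 0.22). Inhbb, a subunit of activin B, was at 1413, 802.3, 843.6 and 1117 in the control and 2008, 1633, 2521 and 1767 in the antibody libraries, without overlap, with a log2 change of 0.94 ± 0.20 (SE; adjusted p = 0.0152); it was at 0.39 (adjusted p = 0.191) without antibody and at 0.81 (adjusted p = 0.119) in control diet with antibody against control. The ligands Bmp3, Tgfb2 and Wnt5a rose by 1.20, 0.86 and 0.45, and the Wnt target Axin2 by 0.76 (adjusted p = 0.0236, 0.0252, 0.0258 and 0.0495). The 11 rises were 2 without antibody library 3 and 14 without control library 1. Of 49 collagen and matrix genes 5 rose with antibody (median 0.38) and 8 without (median 0.51). Biglycan (Bgn), a small proteoglycan, was at 9640, 7714, 6137 and 6195 against 10599, 11655, 11399 and 12079, every antibody library higher, with 0.65 ± 0.14 (SE; adjusted p = 0.0171). Collagen VIII (Col8a1), periostin (Postn) and the aggrecanase Adamts5 rose by 0.82, 0.74 and 1.30 (adjusted p = 0.0215, 0.0408 and 0.0403). Col6a3, chosen after its values were seen, was at 0.54 (adjusted p = 0.0862) with antibody and 0.84 (adjusted p = 0.031) without. The matrix count was 0 without control library 4 and 27 without control library 1. None of 29 progenitor genes passed with antibody (median 0.18) and 3 rose without it (median 0.32), among them the adhesion protein Icam1 at 0.55 without and 0.30 with antibody and the tetraspanin Cd9 at 0.58 and 0.21.

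Of 20 endothelial markers 4 rose and 1 fell with antibody (median 0.24), and 1 rose without it (median 0.22). Among all genes, 5.04% rose and 4.91% fell with antibody, and 3% rose without it. Egfl7, a secreted endothelial protein, was at 1646, 1740, 1298 and 1800 against 1954, 2384, 2699 and 2310, with 0.53 ± 0.11 (SE; adjusted p = 0.0144), and von Willebrand factor (Vwf) and Mmrn2 rose by 0.76 and 0.55 (adjusted p = 0.0173 and 0.038). Of 16 mural markers the pericyte channel gene Kcnj8 and the proteoglycan gene Cspg4 rose by 0.60 and 0.68 (adjusted p = 0.045 and 0.0318). Of 35 cell cycle genes, 7 rose with antibody (median 0.53) and 11 without (median 0.49), and none fell with it. The proliferation marker Mki67 was at 209, 199.5, 163.2 and 210.7 in the control and 405.9, 263.3, 374.8 and 294.4 in the antibody libraries, each of the latter above all controls, with 0.76 ± 0.18 (SE; adjusted p = 0.0252). Thymidine kinase (Tk1), Cdk1 and Aurkb, which act in DNA synthesis and mitosis, rose by 1.11, 0.81 and 0.91 (adjusted p = 0.0223, 0.0226 and 0.0307). No cell cycle gene passed without control library 3, and 17 passed without control library 1. Of the signalling, matrix, vascular and cell cycle genes named, calls ended with at least 1 library left out for Bmp3, Tgfb2, Wnt5a, Axin2, Bgn, Col8a1, Postn, Adamts5, Vwf, Mmrn2, Kcnj8, Cspg4, Mki67, Tk1, Cdk1 and Aurkb, with a highest adjusted p of 0.144 for Axin2 without antibody library 3.

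Several acute response genes that passed the threshold for high-fat diet without antibody did not pass with it. Of 24 cytokine, chemokine and acute phase genes, 4 rose and none fell without antibody (median 0.73), whereas none rose and 2 fell with it (median 0.14). Among all genes, 3% rose without antibody, and 5.04% rose and 4.91% fell with it. Between the high-fat groups 21 of the 24 were lower with antibody, with a median of -0.57 and none past the threshold. The 4 rises without antibody were 0 without control library 2, 3 or 4 or high-fat library 3 or 4, and 11 without control library 1. Metallothionein 2 (Mt2), which binds metals and responds to glucocorticoids, was at 470.3, 332.8, 567.8 and 582.7 in the control, 500.3, 734.4, 780.5 and 297.9 in the antibody and 506.8, 1794, 6214 and 4930 in the high-fat libraries without antibody. Only high-fat libraries 2 to 4 without antibody stood clear of both other groups. Its log2 change was 0.18 ± 0.59 (SE; adjusted p = 0.869) with antibody, 2.27 ± 0.59 (SE; adjusted p = 0.039) without, and -2.09 ± 0.59 (SE; adjusted p = 0.153) between the high-fat groups. Pentraxin 3 (Ptx3), an acute phase protein of innate immunity chosen here after its values were seen, was at 26.8, 14.42, 10.32 and 7.893 in the control and 32.39, 17.61, 17.31 and 12.13 in the antibody libraries. These overlapped, at 0.45 ± 0.61 (SE; adjusted p = 0.651), beside 2.51 (adjusted p = 0.0338) without antibody, and the difference between the high-fat groups was -2.06 ± 0.61 (SE; adjusted p = 0.161). The monocyte chemokine Ccl7, also chosen after its values were seen, was at 0.84 (adjusted p = 0.252) with and 2.02 (adjusted p = 0.031) without antibody. In high-fat without antibody, the adjusted p with 1 library left out reached 0.113 for Mt2, 0.111 for Ptx3 and 0.104 for Ccl7. The chemokine Cxcl14 fell with antibody: it was at 1895, 1213, 676.7 and 999.2 in the control and 391.6, 543.4, 794 and 317.2 in the antibody libraries, overlapping through control library 3, with -1.21 ± 0.29 (SE; adjusted p = 0.0242), beside 0.22 (adjusted p = 0.626) without antibody and -1.44 ± 0.29 (SE; adjusted p = 0.0638) between the high-fat groups. The acute phase glycoprotein Orm1 also fell (log2 change -0.42, adjusted p = 0.0399).

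Immediate early genes, which respond within minutes to stimulation and to handling of tissue, gave 1 rise of 21 with antibody (median 0.15), near the 5.04% of all genes. Without antibody they gave 4 (median 0.56), where 3% of all genes rose. Among high-fat libraries 20 of the 21 were lower with antibody (median -0.50, none past the threshold). Fos was at 100.7, 98.45, 86.24 and 84.08 in the control and 147.2, 224.3, 213.9 and 136.9 in the antibody libraries. The antibody libraries were all higher, but the change of 0.93 ± 0.35 (SE; adjusted p = 0.0927) missed the threshold, beside 1.91 (adjusted p = 0.0149) without antibody and -0.98 (adjusted p = 0.22) between the high-fat groups. Nr4a1, a nuclear receptor of the same response, was at 0.10 (adjusted p = 0.894) with antibody, 1.71 (adjusted p = 0.0342) without, and -1.60 (adjusted p = 0.139) between them; the mRNA decay factor Zfp36 was at 0.16 and 0.56 (adjusted p = 0.034). Arc, which encodes a cytoskeletal protein of the same response, was at 9.419, 20.02, 8.886 and 19.8 against 42.78, 53.86, 46.21 and 56.78: all antibody libraries were higher, with 1.80 ± 0.35 (SE; adjusted p = 0.0136) beside 1.84 (adjusted p = 0.0167) without antibody. The 4 rises without antibody were 0 without control library 4 or high-fat library 4 and 10 without high-fat library 1, and the adjusted p reached 0.0657 for Fos, 0.108 for Nr4a1 and 0.115 for Zfp36 with 1 library left out. Glucocorticoid-responsive genes gave no rise and 3 falls of 19 with antibody (median -0.21), against 3 rises and 1 fall without (median 0.56). Of all genes, 4.91% fell with antibody, and 3% rose and 5.2% fell without it. Between the high-fat groups 17 of the 19 were lower with antibody (median -0.79), and 2 passed, Zbtb16 and Cdkn1a. Fkbp5, a chaperone induced by glucocorticoids and chosen after its values were seen, was at -0.16 ± 0.30 (SE; adjusted p = 0.761) with antibody, 1.07 (adjusted p = 0.046) without and -1.23 ± 0.30 (SE; adjusted p = 0.113) between the high-fat groups. Its call without antibody ended with any 1 of 12 libraries left out, at an adjusted p of up to 0.121, and the 3 rises of the list became 0 without control library 4 or high-fat library 2 or 4. Hsd11b1, which regenerates glucocorticoid, fell in both comparisons, at -0.80 (adjusted p = 0.029) with and -1.14 (adjusted p = 0.0149) without antibody. In the heat shock and unfolded protein list 3 of 25 fell with antibody (median -0.23) and none passed without it (median 0.13); the 3 falls were 8 without control library 1 and 0 without control library 4. The chaperone Hsph1 was at 956.5, 1442, 1874 and 2007 in the control and 823.2, 711.8, 793.8 and 586.3 in the antibody libraries, all lower, with -1.06 ± 0.23 (SE; adjusted p = 0.0174), beside 0.06 (adjusted p = 0.879) without antibody and -1.12 ± 0.23 (SE; adjusted p = 0.0661) between the high-fat groups. Leaving out single libraries ended the calls of Cxcl14, Orm1, Hsd11b1 and Hsph1, with a highest adjusted p of 0.107 for Orm1 without control library 3.

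**Figure D3:**
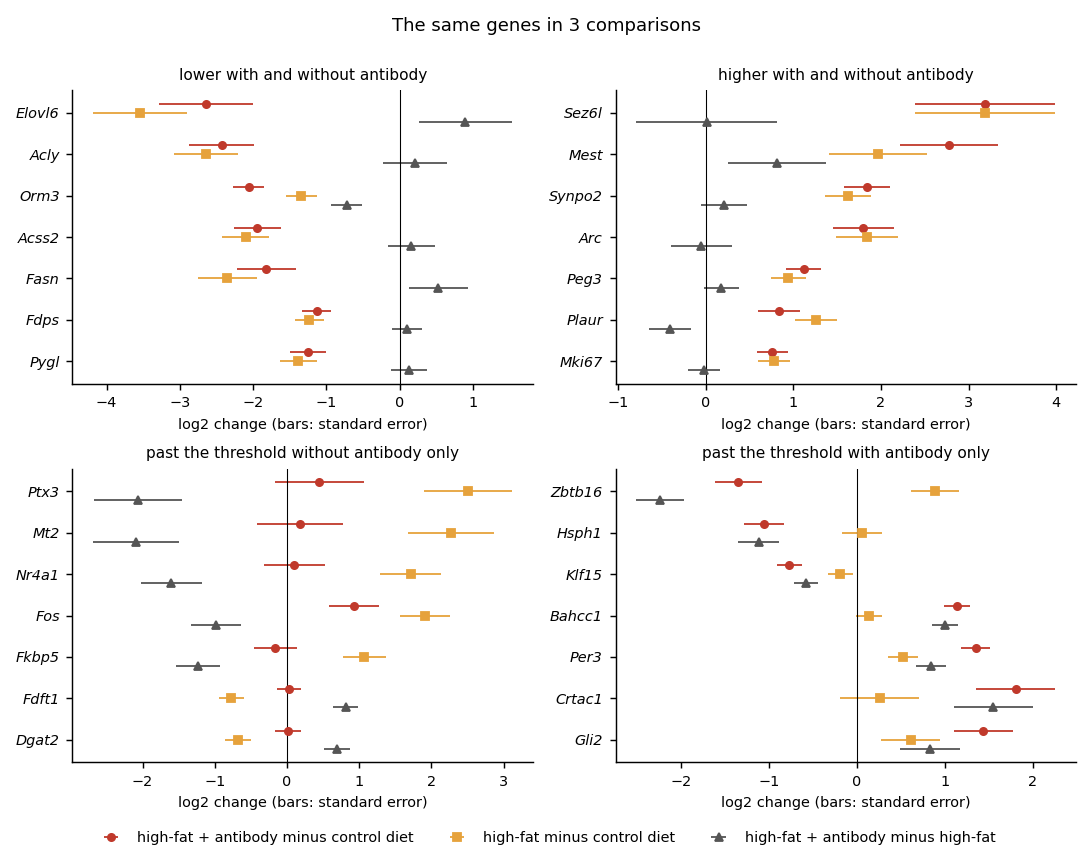
Log2 change (horizontal axis) with standard error (bars) of 28 genes in 3 comparisons: high-fat with antibody minus control diet (circles), high-fat without antibody minus control diet (squares) and high-fat with antibody minus high-fat without (triangles). The upper panels hold genes past the threshold against control both with and without antibody, such as Acly at -2.43 and -2.64, and the lower panels genes past it only without (Ptx3 at 0.45 and 2.51) or only with antibody (Bahcc1 at 1.14 and 0.14).

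Tested directly, high-fat with antibody against high-fat without gave 11 genes past the threshold, 5 higher (0.0355%) and 6 lower (0.0425%), and 1845 genes had an unadjusted p under 0.05. Zbtb16 (ENSMUSG00000066687, chr9:48654297-48836222), the PLZF transcription factor that glucocorticoids induce and that acts in adipogenesis, was at 5103, 6205, 3289 and 2840 in the high-fat libraries without antibody, 841.2, 656.9, 955.7 and 1117 with it and 1846, 2382, 3654 and 1563 in the control libraries. The antibody libraries lay below all libraries of both untreated groups, with -1.35 ± 0.27 (SE; adjusted p = 0.0136) against control and -2.24 ± 0.27 (SE; adjusted p = 0.00623) against high-fat, while high-fat against control was 0.89 (adjusted p = 0.0517). Cdkn1a, the cell cycle inhibitor p21, was at 1277, 735.5, 1100 and 688.5 in the control and 512.4, 322, 716.9 and 346.5 in the antibody libraries, overlapping through antibody library 3, with -1.03 ± 0.25 (SE; adjusted p = 0.0263), and at -1.54 ± 0.25 (SE; adjusted p = 0.0352) against high-fat. Tppp3, a tubulin-binding protein known as a marker of progenitor cells, rose with diet without antibody (log2 change 0.74, adjusted p = 0.0431) but was at 1665, 1733, 1059 and 1855 in the control and 1333, 1216, 1008 and 942.6 in the antibody libraries, -0.47 ± 0.20 (SE; adjusted p = 0.138); between the high-fat groups it was -1.21 ± 0.20 (SE; adjusted p = 0.0375). It was the 1 gene of the 11 that passed for diet without antibody. Elmod1 and Kcna1, a regulator of small GTPases and a potassium channel, were lower against both control (-1.47 and -1.04; adjusted p = 0.0117 and 0.0207) and high-fat (-1.94 and -1.46; adjusted p = 0.0286 and 0.0352).

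Bahcc1, a chromatin reader, was at 760.8, 962.2, 1236 and 1506 in the control and 2174, 2418, 2357 and 2564 in the antibody libraries, with all of the latter higher and 1.14 ± 0.15 (SE; adjusted p = 0.0033); it was at 0.14 (adjusted p = 0.549) in high-fat without antibody, 1.0 ± 0.15 (SE; adjusted p = 0.0344) between the high-fat groups and 1.13 (adjusted p = 0.0125) in control diet with antibody against control. The lipoxygenase Alox12 was at 32.23, 47.08, 32.55 and 45.52 against 101.3, 93.96, 79.86 and 158.1, separate in all libraries, with 1.41 ± 0.23 (SE; adjusted p = 0.00821) and 1.37 ± 0.23 (SE; adjusted p = 0.0375) against high-fat. Mecom, Wdr6 and BC037039 were higher against control by 0.67, 0.46 and 0.91 (adjusted p = 0.0162, 0.0276 and 0.0172) and against high-fat by 0.89, 0.72 and 1.16 (adjusted p = 0.0352, 0.0352 and 0.0375); Mecom encodes the transcription factor EVI1. The predicted gene Gm15459 is the last of the 11. With the muscle score as a covariate none of the 11 passed, and with 1 library left out the count ran from 1 to 263. Against control, leaving out 1 library ended the calls of Cdkn1a, Kcna1, Mecom and Wdr6, with a highest adjusted p of 0.0729 for Wdr6 without control library 4.

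**Figure D4:**
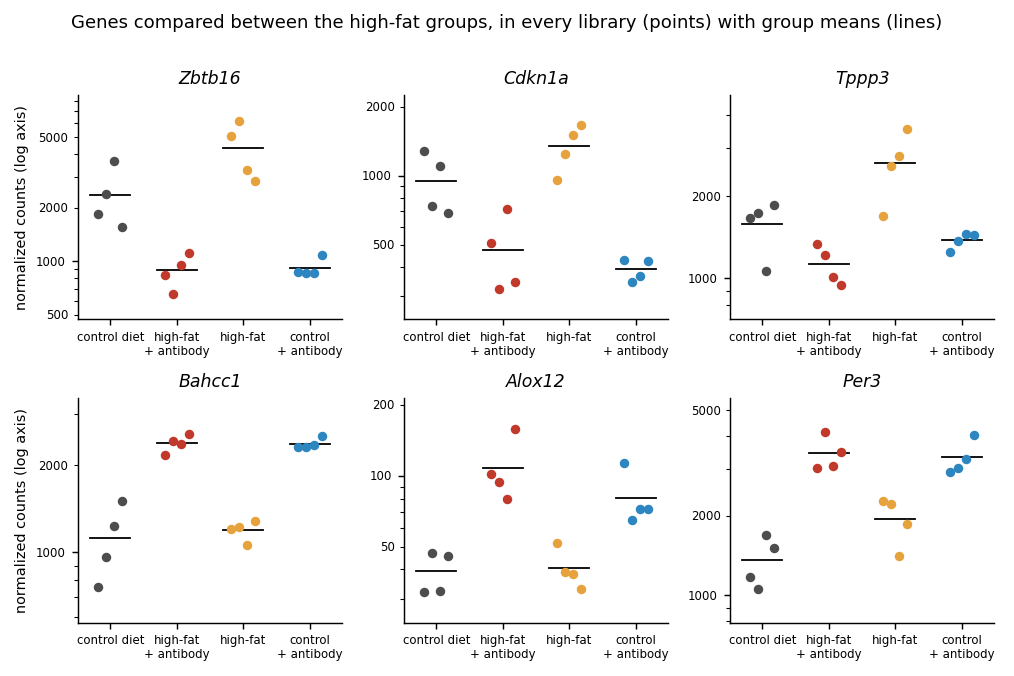
Normalized counts (log axis) of 6 genes in each of the 16 libraries (points) with group means (lines). Zbtb16, Cdkn1a and Tppp3 are lower, and Bahcc1, Alox12 and Per3 higher, in the high-fat libraries with antibody than in every high-fat library without it.

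Of 20 clock genes, 4 rose and 3 fell with antibody (median 0.36), where 5.04% of all genes rose and 4.91% fell. None passed for high-fat without antibody (median 0.11). With 1 library left out the rises were 2 to 6 and the falls 1 to 3. Per3 (ENSMUSG00000028957, chr4:151003652-151044665), a repressor arm gene of the clock, was at 1176, 1058, 1689 and 1513 in the control, 3027, 4163, 3095 and 3485 in the antibody, 2280, 2225, 1412 and 1870 in the high-fat libraries without antibody and 2939, 3035, 3282 and 4045 in the control-diet libraries with antibody. Both antibody groups lay above both untreated groups, with 1.35 ± 0.17 (SE; adjusted p = 0.0029) in high-fat with antibody, 0.52 (adjusted p = 0.0695) in high-fat without and 1.30 (adjusted p = 0.0125) in control diet with antibody, each against control; between the high-fat groups it was 0.84 ± 0.17 (SE; adjusted p = 0.0661). The clock output factor Tef was at 3245, 3538, 6454 and 5733 against 8091, 9539, 8488 and 8634, every antibody library higher, with 0.93 ± 0.19 (SE; adjusted p = 0.0143). Hlf, a factor of the same family, and Cry2, a repressor of the clock, rose by 1.27 and 0.44 (adjusted p = 0.0412 and 0.0226). In the opposite direction, Npas2 and Clock, which encode alternative members of the activating complex, fell by 1.39 and 0.36, and the repressor Nfil3 by 0.90 (limma, adjusted p = 0.0324, 0.0484 and 0.0154). Hlf and Npas2 were chosen after their values were seen. With 1 library left out the threshold was missed by Hlf, Cry2, Npas2 and Clock, with a highest adjusted p of 0.129 for Clock without control library 3. Control diet with antibody against control gave 14 genes past the threshold (0.0993%), 8 higher (0.0567%) and 6 lower (0.0425%), and Per3 was the 1 clock gene among them. Between the high-fat groups no clock gene passed (0.078% of all genes did), and the part of collection time was not tested.

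Outside these lists, the largest rises included genes of varied function. Sez6l, a neuronal membrane protein, was at 32.64, 18.18, 1.032 and 0.9608 in the control and 38.26, 68.52, 152.6 and 41.8 in the antibody libraries, with 3.19 ± 0.80 (SE; adjusted p = 0.0284) and the same 3.19 without antibody (adjusted p = 0.0362). Synpo2 (ENSMUSG00000050315, chr3:123076519-123236149), an actin-binding protein, was at 3718, 2540, 2245 and 2252 against 7252, 8879, 14196 and 8558, without overlap, with 1.84 ± 0.26 (SE; adjusted p = 0.00585), beside 1.62 (adjusted p = 0.0136) without antibody. The matrix protein gene Crtac1 was at 152.8, 143.2, 468.8 and 129.6 against 564, 775.4, 697.5 and 660.7, separate in spite of control library 3, with 1.81 ± 0.45 (SE; adjusted p = 0.0279); it was 0.26 (adjusted p = 0.727) without antibody and 1.55 ± 0.45 (SE; adjusted p = 0.16) between the high-fat groups. The channel genes Cacna1e and Kcnh2 rose by 2.47 and 1.80 (adjusted p = 0.0173 and 0.0174). Klf14, a Krüppel-like factor of adipocytes, rose by 1.61, Hr, a corepressor, by 1.57, and Plekhg6 and Ccdc9b by 1.57 and 1.61 (adjusted p = 0.0324, 0.0113, 0.0176 and 0.0172). Calls ended with 1 library left out for Sez6l, Cacna1e, Crtac1, Kcnh2, Klf14 and Plekhg6, with a highest adjusted p of 0.0971 for Klf14 without antibody library 3.

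The gene with the smallest p was Orm3 (ENSMUSG00000028359, chr4:63356162-63359511), an acute phase glycoprotein gene. It was at 231.6, 279.6, 590 and 367 in the control and 87.02, 84.2, 78.98 and 78.14 in the antibody libraries, far apart, with -2.06 ± 0.21 (SE; adjusted p = 0.000713); it was -1.34 (adjusted p = 0.0136) without antibody and -0.72 ± 0.21 (SE; adjusted p = 0.161) between the high-fat groups. Orm3 was also the 1 gene past the threshold in high-fat with antibody against control diet with antibody, at -1.61 (adjusted p = 0.0254), which is 0.00709% of genes, where 2495 had an unadjusted p under 0.05. How reads shared with the other Orm genes were counted is unstated, so its level is uncertain. Rgs2 (ENSMUSG00000026360, chr1:143999338-144004161), a brake on G-protein signalling, was at 1286, 1399, 910.5 and 1012 against 490.9, 297.6, 274.5 and 367.9, without overlap, with -1.70 ± 0.30 (SE; adjusted p = 0.00987), beside -0.94 (adjusted p = 0.0594) without antibody. The sorting receptor gene Sorl1 fell by 1.61 (adjusted p = 0.00987), the small GTPase regulator gene Rap1gap fell by 2.37 (adjusted p = 0.0398) and the apolipoprotein gene Apoc3 by 1.69 (adjusted p = 0.0307). The soluble adenylyl cyclase gene Adcy10, the myosin motor gene Myo5b and Tmem79 fell by 1.74, 1.68 and 1.64 (adjusted p = 0.0466, 0.0431 and 0.0396). Kcng4 and Lrtm1 fell by 2.89 and 1.85 (adjusted p = 0.0403 and 0.0392); among all high-fat libraries both were highest in library 2 without antibody, at 87.05 and 154.4, the library with the highest muscle score, and muscle's part in them was not tested. The calls that ended with 1 library left out were those of Rap1gap, Kcng4, Lrtm1, Adcy10, Apoc3, Myo5b and Tmem79, with a highest adjusted p of 0.139 for Adcy10 without control library 4. Sorl1, Apoc3, Adcy10, Myo5b and Tmem79 also passed for high-fat without antibody, where each missed the threshold with at least 1 library left out.

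Few markers of other cell types passed the threshold between the antibody and control libraries, where 5.04% of all genes rose and 4.91% fell. Of 24 macrophage markers 1 rose, the lysosomal protein gene Cd68 (log2 change 0.69, adjusted p = 0.044; median 0.23, summed normalized counts 52170 to 116618 in the control and 79118 to 88991 in the antibody libraries). That count was 7 without control library 1 and 0 without any 1 of 10 other libraries. Of 20 genes of lipid-associated macrophages and lysosomes 1 fell, the protease gene Ctsd (log2 change -0.53, adjusted p = 0.036). In the interferon and antigen presentation list 1 of 31 rose, the factor Irf1 (log2 change 0.47, adjusted p = 0.0336). None of 17 lymphocyte, 8 granulocyte and mast cell, 14 Schwann cell and nerve, 8 blood and 5 epithelial markers passed, with medians of 0.02, 0.16, -0.14, 0.08 and 0.05. The mast cell proteases Cpa3 and Tpsb2 passed for high-fat without antibody (0.50 and 0.54; adjusted p = 0.0263 and 0.0304) and were at 0.19 and 0.12 with it (adjusted p = 0.262 and 0.528). With 1 library left out the calls ended for Cd68, Ctsd and Irf1, with a highest adjusted p of 0.12 for Cd68 without control library 3. In high-fat without antibody against control, 2 of the 24 macrophage markers rose (median 0.45), Cd68 among them, where 3% of all genes rose. Between the high-fat groups 21 of the 24 were lower with antibody (median -0.22), and none passed. Ctsd also passed for high-fat without antibody.

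Skeletal muscle genes, kept out of the counts above, were lower in the antibody libraries without passing the threshold, apart from 1. Of 86 tested, 79 had a negative log2 change, the median was -2.04, and Lmod2, an actin nucleator of muscle, passed at -3.72 ± 1.07 (SE; limma, adjusted p = 0.0422). Against the same control, 79 of the 86 were higher in high-fat without antibody (median 1.51) and 85 in control diet with antibody (median 2.99). Between the high-fat groups 84 were lower with antibody (median -3.44), and none passed. Skeletal actin (Acta1) was at 4521, 6440, 1477 and 179 normalized counts in control libraries 1 to 4 and 102.9, 1756, 752.4 and 302.8 in antibody libraries 1 to 4, overlapping, with a log2 change of -1.88 ± 1.29 (SE; adjusted p = 0.344). The mean log2 level of the list was 7.376, 7.763, 6.069 and 3.123 in the control libraries and 3.063, 5.789, 3.354 and 4.126 in the antibody libraries. Control library 4 was as low as the antibody libraries. Of the 86 genes, 17 had a value of 0 in at least 1 control library and 22 in at least 1 antibody library. With the list's score as a covariate, 1057 other genes were lower in the antibody libraries against 693 without it.

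**Figure D5:**
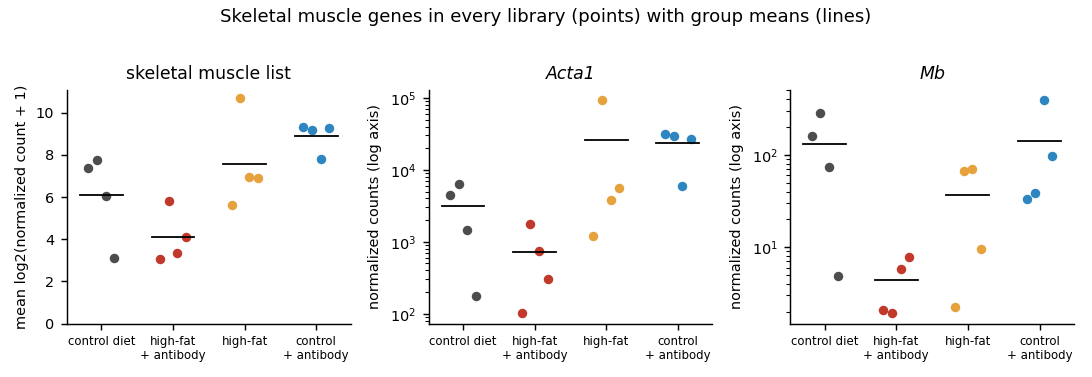
Mean log2(normalized count + 1) over the 86 skeletal muscle genes, and normalized counts (log axes) of Acta1 and Mb, in each of the 16 libraries (points) with group means (lines). The antibody libraries lie between 3.063 and 5.789 on the list mean, and control library 4, at 3.123, lies within that range.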

How the data were processed

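Messenger RNA of inguinal fat (TRIzol, then a lipid tissue column kit, poly-A selection) was sequenced as 16 TruSeq stranded libraries, 4 in each of 4 groups taken from the labels. The authors deposited 1 table of normalized counts for 16091 genes, a normalized read signal whose values are not whole numbers; 0.099% of values are whole, so reads were not recovered and no count model was fitted. The submitters' processing notes name limma 3.42.2, STAR 2.7.0e, Subread 1.6.2 with featureCounts, fastp 0.20.1 and the builds GRCm38 and mm10, without their roles. The normalization method, the counting by strand and the raw depth of each library were not stated in the labels or the file. Of the 16 columns, each matched the title of 1 sample, no pair was identical, and 255 values are 0.

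Genes at or above 1 CPM equivalent (24.49 normalized counts) in at least 4 libraries were kept, 14189 of them. Log2(value + 1) was fitted with limma 3.58.1 in R 4.3.3, with 4 group means over all 16 libraries and empirical Bayes with a variance trend, and p-values were adjusted by the Benjamini-Hochberg method over all tested genes at a threshold of 0.05. Fold changes on this scale understate those of low genes, and ± gives the standard error. A list of 86 skeletal muscle genes was kept out of counts, which leaves 14103. The procedure was tested on simulated data with independent noise for each gene. Deviations that a library shares across genes were not simulated, so that test does not cover the dependence of the calls on single libraries.

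The comparison, the 37 gene lists and the rule for named genes were chosen with earlier results of these data known. The rule takes, past the threshold, the 15 genes that rose most and the 15 that fell most (1 group mean at 2 CPM equivalents or above, no predicted genes, no muscle genes), up to 12 genes past it between the high-fat groups, from each list up to 4 members by smallest p and up to 2 by smallest p between the high-fat groups, and 15 fixed genes; the text names a subset, and some results that the rule takes are not reported here. Genes outside it are 17 of the 141 named: Boc, Ccl7, Cdon, Col6a3, Cox5a, Fkbp5, Gas1, Gli1, Gli2, Gli3, Hlf, Npas2, Ptch1, Ptx3, Slc2a5, Smo and Sufu. Alternatives were 2 other pseudocounts, 2 filters, 2 scalings, the 2 groups alone, a replicate block, array weights, no variance trend, a muscle score as covariate, each library left out, and control library 3 with high-fat library 2 left out.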

Additional observations from a re-analysis of the deposited data

Results flagged for a closer look

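In groups of 4 libraries, 12 of the 282 sets of values looked at had 1 library whose gap to the nearest other, as a share of the group's range, was above Dixon's critical value; chance gives this in about 1 of 20 sets. Among the control libraries, library 1 was far above the others for Boc (740.4 normalized counts) and Kcnh2 (172.3) and far below them for Gpam (5707). Control library 2 was lowest for Lep (7059) and highest for Nr4a1 (165.5). Control library 3 was lowest for Cdk1 (57.06) and Cpa3 (337.6) and highest for Crtac1 (468.8). Among the antibody libraries, library 3 was lowest for BC037039 (57.71) and Ndufv2 (2440) and highest for Smo (1513), and library 2 was highest for Nnat (66652). The difference between the antibody effect under high-fat and under control diet passed the threshold for 0 genes with limma, where 877 had an unadjusted p under 0.05.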

How the results depend on the processing

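Depth is unknown, so counting error cannot be given, and 4 libraries a group limit the precision. High-fat with antibody against control gave 1404 calls (711 higher, 693 lower). It gave 11 (8 and 3) with only the 8 libraries fitted, 355 (215 and 140) with the replicate block, 3438 (1756 and 1682) with array weights and 523 (336 and 187) without control library 3 and high-fat library 2. Equal column totals gave 1374 higher and 371 lower, and the muscle covariate 1057 lower. Leaving out 1 library gave 358 to 3717 calls, 216 to 1769 higher and 132 to 1948 lower. Same-numbered libraries of the 2 groups deviated together with r of -0.296, 0.481, -0.192 and -0.011, so the numbers were not taken as pairs.

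High-fat without antibody against control (1156 calls) gave 0 with only its 8 libraries, 0 with the replicate block, 4377 with array weights, 725 without the variance trend, 95 with the muscle covariate, 0 without control library 3 and high-fat library 2, and 0 to 4118 with 1 library left out. High-fat with against without antibody (11) gave 7 under the stricter filter, 4 with only its libraries, 2 with the replicate block, 1316 with array weights, 0 with the muscle covariate, and 1 to 263 with 1 left out. Control diet with against without antibody (14) gave 0, 2, 755, 3 and 4 with only its libraries, the replicate block, array weights, no trend and the muscle covariate, and 0 to 77 with 1 left out. High-fat with antibody against control diet with antibody (1) gave 0 with a pseudocount of 1 CPM equivalent, 2 without a filter, 4 with equal totals, 566 with only its libraries, 0 with the replicate block, 1026 with array weights, 0 with the muscle covariate, 232 without control library 3 and high-fat library 2, and 0 to 188 with 1 left out. The cause of these differences was not tested. No named gene past the threshold changed sign in the 28 alternatives. Of the 105 named genes past the threshold, 4 passed with only the 2 groups fitted, where the highest adjusted p was 0.164.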

Other observations

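Components of Hedgehog signalling, chosen after their values were seen, were not in any list. The transcription factor Gli2 was at 103.8, 67.63, 67.23 and 54.39 in control libraries 1 to 4 and 120.5, 191.9, 397.3 and 156.8 in antibody libraries 1 to 4. Every antibody library was above every control library, and the log2 change was 1.44 ± 0.34 (SE; adjusted p = 0.0226), beside 0.61 (adjusted p = 0.232) for high-fat without antibody and 0.83 ± 0.34 (SE; adjusted p = 0.295) between the high-fat groups. The factor Gli3 and the co-receptor Cdon also rose with antibody, by 0.58 and 0.82 (limma, adjusted p = 0.0402 and 0.011), where 5.04% of all genes rose. Gli3 passed the threshold for high-fat without antibody as well, but missed it there in 9 of the 16 fits with 1 library left out. In high-fat with antibody against control, other components did not pass. The factor Gli1, the receptor Ptch1, the transducer Smo, the co-receptors Gas1 and Boc and the inhibitor Sufu did not pass, at 0.74, -0.02, 0.13, 0.23, 0.31 and 0.32 (adjusted p = 0.0762, 0.935, 0.441, 0.385, 0.456 and 0.138). With 1 library left out the threshold was missed by Gli2 and Gli3, with a highest adjusted p of 0.112 for Gli3 without control library 3. Of 20 p53 targets and cell cycle inhibitors, Cdkn1a fell and the polo-like kinase gene Plk2 rose by 0.73 (limma, adjusted p = 0.00705). These counts of 1 each are near the shares of all genes, 4.91% lower and 5.04% higher. Without antibody 1 of the 20 also rose and 1 fell, where 3% of all genes rose and 5.2% fell. Plk2 passed there as well, but missed the threshold in 14 of the 16 fits with 1 library left out.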
